A study of Mus musculus with 4 samples.

Results

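The genes described here are 36 genes of DNA replication and mitosis, read by symbol from a deposited table of 55414 genes measured in newborn mouse cerebral cortex. The first 18 act in S phase, when DNA is copied, and the other 18 act when the copied chromosomes are separated. They are listed by their function, and no measured value enters the rule, although the genes were chosen with earlier results of these data known. The series has 2 libraries labelled cKO (replicates 2 and 3; Mkk7flox/flox with Emx1-Cre) and 2 labelled Control (replicates 2 and 3; Mkk7flox/flox without Cre), all from C57BL/6J cortex on postnatal day 1. Both groups thus carry floxed alleles of Mkk7, the gene for the kinase MKK7 that activates JNK. Emx1-Cre acts in dorsal telencephalic progenitors and in the cells they give rise to, so vessels, microglia and neurons that arrive from ventral sources are not its targets. The tissue is bulk RNA, in which fewer dividing cells and less RNA per dividing cell cannot be told apart. Whether replicates 2 and 3 are different animals is not stated in the labels, and the p-values speak only of the spread among these 4 libraries.

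Before a cell divides, the factors CDC6 and CDT1 load the ring-shaped MCM helicase onto origins of replication. CDC45, the GINS complex and MCM10 then switch the helicase on, PCNA clamps the polymerases to DNA, and ribonucleotide reductase and thymidylate synthase supply the nucleotides. Cyclin E helps to start S phase, and cyclin A and cyclin B with the kinase CDK1 drive entry into mitosis. In newborn cortex such genes mark the residual progenitors of the ventricular and subventricular zones and dividing glial precursors, vessel cells and microglia, whereas neurons have left the cycle.

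Library totals lay between 19421470 and 22511175 estimated counts. Map2k7, the gene of MKK7, stood at 47.9 and 48.2 CPM (counts per 1000000, scaled by TMM) in cKO 2 and cKO 3, against 38.4 and 30.4 CPM in Control 2 and Control 3. With a log2 fold change of 0.48 (SE 0.18) and an edgeR adjusted p of 0.428, it was thus not lower under the cKO label. The values sum the whole gene and the labels do not name the floxed exons, so this gene did not check the labels. Every direction given below rests on the labels. The sexes were not balanced: cKO 3 had 0 counts of Xist and 985 of the Y-linked gene Ddx3y, and the other 3 libraries (cKO 2, Control 2 and Control 3) had 1218, 1145 and 1004 counts of Xist and 0 of Ddx3y. The cKO libraries thus did not come from 1 animal, and for the Control libraries this cannot be told.

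None of the 36 genes passed the threshold between the groups (edgeR's quasi-likelihood test, adjusted p over 17017 tested genes, threshold 0.05). All 36 were tested, and their adjusted p-values ran from 0.33 to 0.999. Over all tested genes 0.047% passed: 1 gene with higher (0.00588%) and 7 genes with lower (0.0411%) levels under the cKO label. Over all genes 0 passed without cKO 3, Control 2 or Control 3, and 2 passed without cKO 2. At an unadjusted p below 0.05 there were 3 of the 36 genes, or 8.33%, against 10.9% of all tested genes. DESeq2, limma-voom and limma on TPM called none of the 36 either, although DESeq2 called 1.09% of all genes. The log2 fold changes were positive for 21 and negative for 15 of the 36 genes, with a median of 0.028, where 49.8% of all tested genes were positive and their median was -0.0021.

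The summed level of the 36 genes was 634 and 655 TPM (transcripts per 1000000, a level per transcript length) in cKO 2 and cKO 3, against 615 and 663 TPM in Control 2 and Control 3. In TPM both cKO sums fell between the Control sums. The CPM sums were 966 and 907 in cKO 2 and cKO 3, against 878 and 960 in Control 2 and Control 3. By that measure cKO 2 lay above both Control libraries. In CPM, cKO and Control libraries did not overlap for 14 of the 36 genes, or 38.9%, against 44.1% of all tested genes. Of these 14 genes, cKO levels lay above Control levels for 7 and below them for 7.

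**Figure D1:**
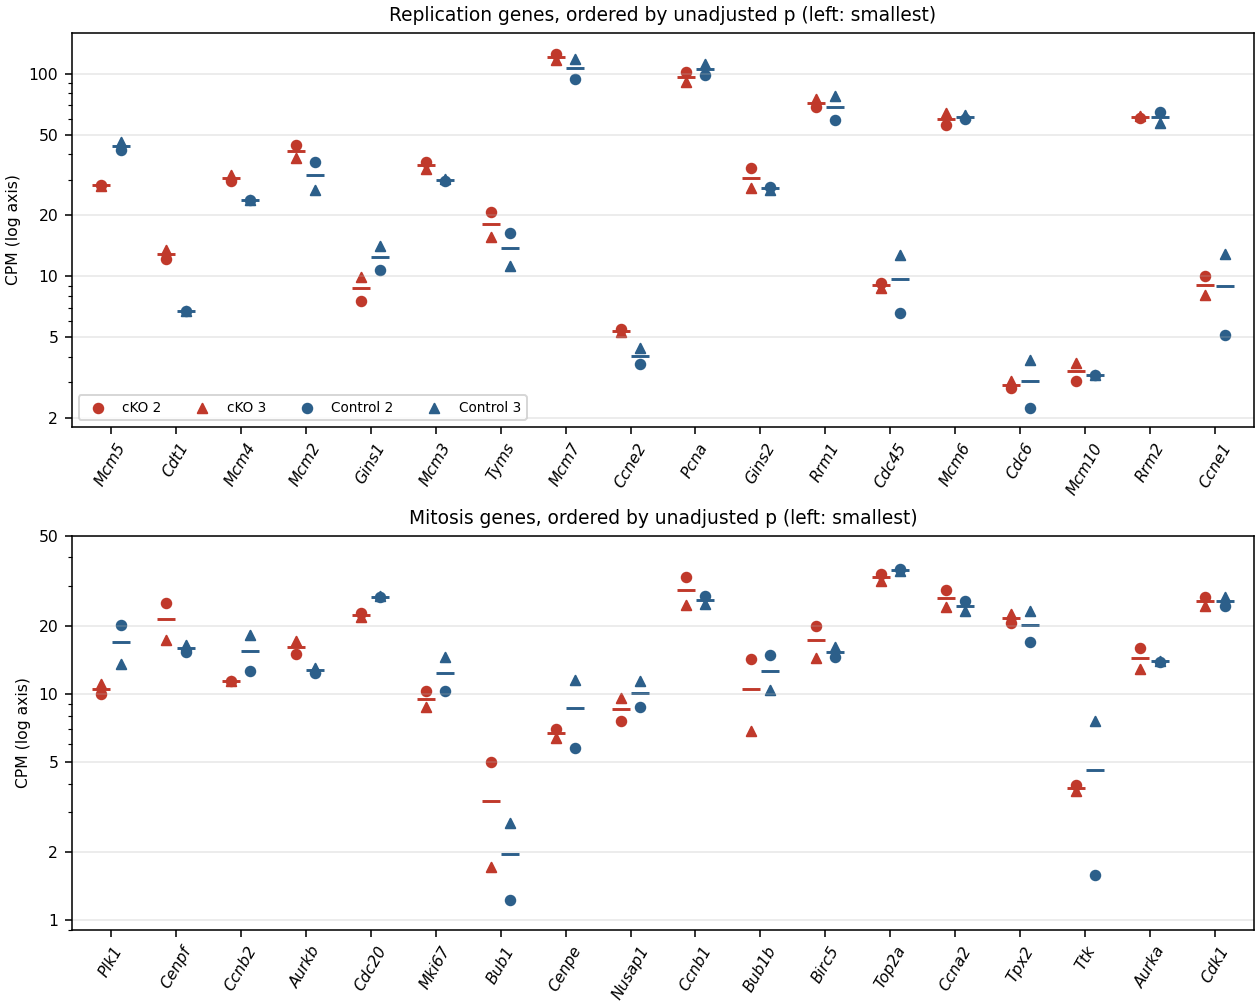
Level of each of the 36 genes in every library, in CPM on a log axis, with cKO libraries in red left of Control libraries in blue (circle: replicate 2, triangle: replicate 3, bar: mean of 2). Within each panel genes run from the smallest unadjusted p on the left. The groups do not overlap for 14 of the 36 genes.

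The replication and mitosis genes were set side by side. Of the 18 replication genes 12 had a positive and 6 a negative log2 fold change, with a median of 0.069. Of the 18 mitosis genes 9 were positive and 9 negative, with a median of -0.053, which turned positive without Control 3 (0.057), without cKO 3 (0.049), with limma-voom (0.012) and with the replicate block (0.020). The difference of these medians was 0.12 on the log2 scale. It is a description with no test, since genes are not replicates and 2 libraries against 2 allow no exact two-sided p below 0.33. The same difference was 0.12 and 0.0096 for cKO 2 over Control 2 and over Control 3, and 0.26 and 0.24 for cKO 3 over Control 2 and over Control 3. It had 1 sign in all 4 pairs, but it shrank to 0.032 without cKO 3 and grew to 0.24 without cKO 2. Without cKO 2 only 3 of the 18 mitosis genes were positive, so that library decided the even split. The replication median was 0.22 without Control 3 and 0.039 without Control 2.

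The libraries of a group differed from each other in the level of these genes. Each gene was set against its own 4-library mean on the log2 scale, and the median over the 18 mitosis genes was taken per library. This median was 0.068 in cKO 2 and -0.14 in cKO 3, against -0.066 in Control 2 and 0.054 in Control 3. For the replication genes the same medians were 0.080 and 0.049 in cKO 2 and cKO 3, against -0.10 and 0.011 in Control 2 and Control 3. Control 3 held the highest value of 7 and Control 2 the lowest value of 7 of the 18 replication genes. Of the mitosis genes, 7 were highest in cKO 2 and 7 in Control 3, and 8 were lowest in cKO 3 and 7 in Control 2. The summed replication level divided by the summed mitosis level, both in TPM, was 2.09 and 2.25 in cKO 2 and cKO 3, against 2.03 and 2.08 in Control 2 and Control 3. The cKO ratios lay above both Control ratios, cKO 2 by a small margin.

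**Figure D2:**
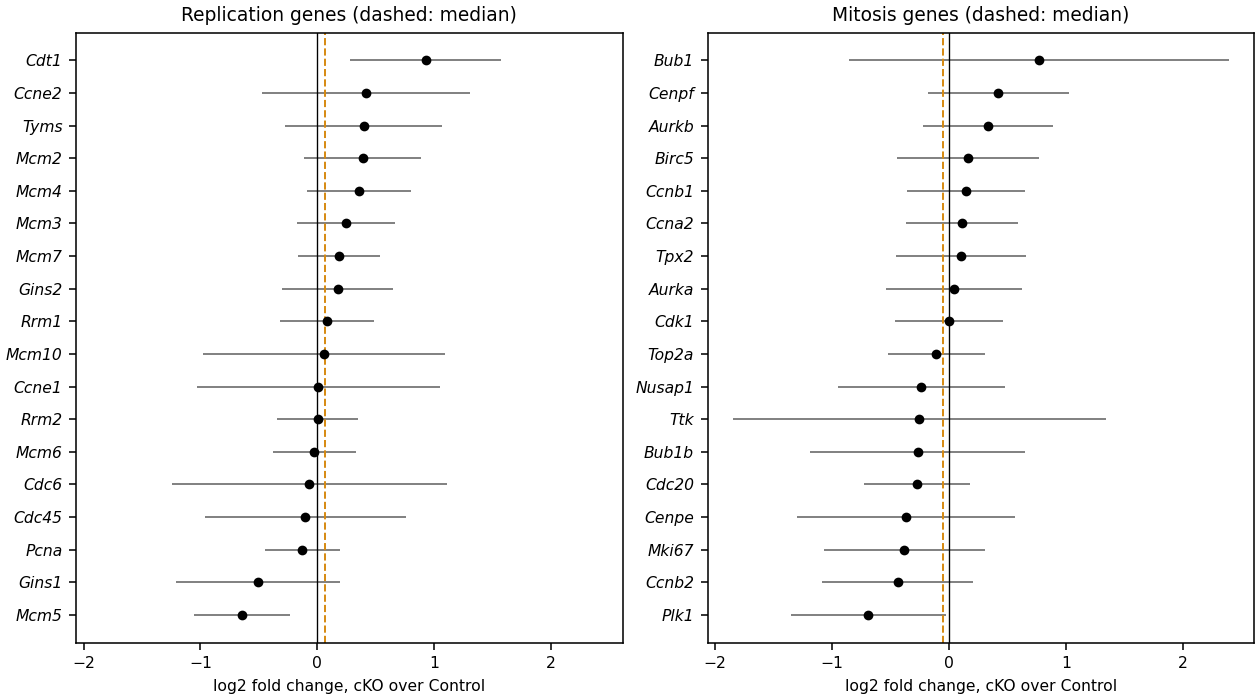
Log2 fold change of each gene, cKO over Control, from counts (points) with its 95% interval (bars), for the 18 replication genes on the left and the 18 mitosis genes on the right. Of the 36 intervals 33 include 0, and the dashed medians lie at 0.069 and -0.053.

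The promoters of replication and mitosis genes held different short motifs. E2F factors bind promoters of S phase genes. The cell cycle homology region (CHR) is bound by the DREAM and B-MYB complexes at genes of late cell cycle, often beside CCAAT boxes of the factor NF-Y. Promoters from 250 bases before to 50 bases after the start were on hand for 29 of the 36 genes (RefSeq, build GRCm38.p6), without Ccne2, Gins1, Gins2, Mcm4, Aurkb, Ccna2 and Tpx2. They were searched on both strands for E2F letters (TTTCGCGC, TTTGGCGC, TTTCCCGC or TTTGCCGC), CHR letters (TTTGAA or TTCGAA) and CCAAT. E2F letters stood in 6 of 14 replication genes (42.9%) and in 1 of 15 mitosis genes (6.67%), against 2.26% of all 32851 promoters. CHR letters stood in 3 of 14 replication genes (21.4%) and in 11 of 15 mitosis genes (73.3%), against 19.2% of all promoters. CCAAT stood in 10 of 14 (71.4%) and 13 of 15 (86.7%), against 37.4% of all promoters. The shares of all promoters count windows, whereas those of the 36 genes count Mcm7, with more than 1 window, once. Per window the replication shares were 40% for E2F, 20% for CHR and 73.3% for CCAAT, and the mitosis shares were unchanged. These matches are descriptions of letters in a window and not of binding.

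The promoters below belong to the 3 replication and 3 mitosis genes with the smallest p among those that hold a searched motif, and they show where those letters stand. Of the replication genes shown, Mcm5 and Cdt1 hold E2F letters and Mcm2 holds none, but CHR and CCAAT letters. Capitals mark the searched motifs, each sequence reads 5′ to 3′ along its gene, and positions are counted from the start of the gene, with the base before it as -1. In Mcm5 (chr8:75109259-75109558, plus strand) 2 E2F matches overlap, starting at -153 and -149, and CCAAT begins at -77, -22 and 7. In Cdt1 (chr8:122567765-122568064, plus strand) 1 E2F match begins at 33. In Mcm2 (chr6:88898731-88899030, minus strand) the reverse complement of CCAAT begins at -175 and a CHR match at -70. In Plk1 (chr7:122159185-122159484, plus strand) CCAAT begins at -14 and a CHR match at 31. In Cenpf (chr1:189688037-189688336, minus strand) CCAAT begins at -132 and -71 and a CHR match at 3. In Ccnb2 (chr9:70421505-70421804, minus strand) CHR matches begin at -167 and 5 and CCAAT at -87, -54 and -21.
Mcm5: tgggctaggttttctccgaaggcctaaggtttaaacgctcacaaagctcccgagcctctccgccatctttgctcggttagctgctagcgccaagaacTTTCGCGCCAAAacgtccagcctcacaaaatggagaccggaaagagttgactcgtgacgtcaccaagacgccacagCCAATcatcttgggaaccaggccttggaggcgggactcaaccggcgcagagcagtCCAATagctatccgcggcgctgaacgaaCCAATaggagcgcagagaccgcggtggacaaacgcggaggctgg
Cdt1: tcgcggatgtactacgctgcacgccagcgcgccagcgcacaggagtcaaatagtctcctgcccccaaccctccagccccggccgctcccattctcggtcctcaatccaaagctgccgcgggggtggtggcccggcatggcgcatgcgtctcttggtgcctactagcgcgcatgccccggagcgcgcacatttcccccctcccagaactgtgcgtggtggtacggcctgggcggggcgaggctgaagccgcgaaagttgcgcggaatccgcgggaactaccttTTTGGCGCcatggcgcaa
Mcm2: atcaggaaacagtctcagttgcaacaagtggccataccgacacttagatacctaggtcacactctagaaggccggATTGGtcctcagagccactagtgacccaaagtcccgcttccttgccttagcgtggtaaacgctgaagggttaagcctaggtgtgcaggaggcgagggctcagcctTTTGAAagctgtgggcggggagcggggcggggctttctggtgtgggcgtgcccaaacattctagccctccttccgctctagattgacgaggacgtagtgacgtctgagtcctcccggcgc
Plk1: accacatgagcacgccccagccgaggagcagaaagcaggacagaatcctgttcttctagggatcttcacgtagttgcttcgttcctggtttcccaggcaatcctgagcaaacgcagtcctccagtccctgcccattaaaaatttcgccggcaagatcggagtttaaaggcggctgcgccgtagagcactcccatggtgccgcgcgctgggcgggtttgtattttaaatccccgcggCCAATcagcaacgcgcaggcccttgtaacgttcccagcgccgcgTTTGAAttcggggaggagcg
Cenpf: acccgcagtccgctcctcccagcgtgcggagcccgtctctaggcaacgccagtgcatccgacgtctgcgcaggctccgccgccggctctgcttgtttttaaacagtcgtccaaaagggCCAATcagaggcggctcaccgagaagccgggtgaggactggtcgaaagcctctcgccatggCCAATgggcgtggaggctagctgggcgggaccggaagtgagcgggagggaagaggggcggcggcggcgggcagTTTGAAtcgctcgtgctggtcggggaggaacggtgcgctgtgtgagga
Ccnb2: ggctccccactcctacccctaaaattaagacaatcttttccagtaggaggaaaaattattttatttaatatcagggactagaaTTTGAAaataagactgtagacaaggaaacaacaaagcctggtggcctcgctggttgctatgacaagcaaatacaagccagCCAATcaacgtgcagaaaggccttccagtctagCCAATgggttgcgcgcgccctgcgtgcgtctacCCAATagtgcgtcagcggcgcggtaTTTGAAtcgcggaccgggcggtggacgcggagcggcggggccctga

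Among the licensing genes of the 36, Cdt1 and Mcm5 had the smallest p. Cdt1, which helps to load the helicase and is destroyed in S phase, had 12.2 and 13.5 CPM in cKO 2 and cKO 3, against 6.77 and 6.75 CPM in Control 2 and Control 3. These values rest on 231 and 309 counts in the cKO libraries and 133 counts in each Control library. The log2 fold change was 0.93 (SE 0.28, 95% interval 0.28 to 1.57, edgeR adjusted p = 0.363), the largest positive value of the 36. Both cKO libraries lay above both Control libraries, but the gene did not pass. Cdc6, its partner in loading, was read at 2.79 and 3.02 CPM in cKO libraries and 2.24 and 3.86 CPM in Control libraries, so its groups overlapped.

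Mcm5 encodes 1 of the 6 subunits of the MCM2 to MCM7 ring. It stood at 28.2 and 28.1 CPM in cKO 2 and cKO 3, against 42.0 and 46.0 CPM in Control 2 and Control 3 (13.8 and 15.2 TPM against 21.2 and 22.9 TPM). Its fold was 0.639, with a 95% interval of 0.482 to 0.848 (log2 fold change -0.65, SE 0.17, edgeR adjusted p = 0.33), and this was the smallest p of the 36 genes. The groups did not overlap, the gene did not pass, and its adjusted p with DESeq2 was 0.135. Over the alternative settings run the log2 fold change of Mcm5 stayed between -0.71 and -0.57 and its adjusted p between 0.135 and 0.919.

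Of the other subunits of the ring, 4 had positive values and Mcm6 a value near 0. Mcm4 stood at 29.5 and 31.5 CPM in cKO libraries, against 23.9 and 23.7 CPM in Control libraries (log2 fold change 0.36, SE 0.19, edgeR adjusted p = 0.535). Mcm2 stood at 44.7 and 38.4 CPM, against 36.8 and 26.7 CPM in Control libraries (0.39, SE 0.21, edgeR adjusted p = 0.555), and the Mcm2 value was 0.17 without Control 3 and 0.63 without Control 2. Mcm3 stood at 36.8 and 34.0 CPM, against 29.4 and 30.2 CPM in Control libraries (0.25, SE 0.18, edgeR adjusted p = 0.655). In these 3 genes both cKO libraries lay above both Control libraries, and none passed. Mcm7 stood at 124.7 and 116.9 CPM in cKO libraries, against 93.8 and 119 CPM in Control libraries, with overlapping groups (0.18, SE 0.15, edgeR adjusted p = 0.695). Its log2 fold change was 0.019 without Control 2 and 0.36 without Control 3. Mcm6 was nearly level, at 55.9 and 64.2 CPM in cKO libraries and 59.6 and 62.6 CPM in Control libraries. Its 95% interval of the log2 fold change ran from -0.38 to 0.33.

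The part that Mcm5 takes of the counts of all 6 ring genes was then set out per library, a measure chosen after its values were seen. It was 8.81% in cKO 2 (95% Wilson interval 8.12 to 9.55) and 8.97% in cKO 3 (8.33 to 9.65). It was 14.7% in Control 2 (13.8 to 15.7) and 14.9% in Control 3 (14.0 to 15.8). The intervals cover counting error only. The cKO mean minus the Control mean was -5.93 percentage points. The exact two-sided permutation p was 0.33, the smallest that 2 libraries against 2 allow. Since the groups had already been seen apart for Mcm5, this p was set beforehand and tests nothing. The other 5 subunits together had 292 and 285 CPM in cKO libraries, against 243 and 262 CPM in Control libraries.

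Of the genes that activate the helicase, Gins1 had the smallest p. Gins1, a subunit of the GINS complex, stood at 7.58 and 9.94 CPM in cKO 2 and cKO 3, against 10.8 and 14.1 CPM in Control 2 and Control 3 (log2 fold change -0.51, SE 0.30, edgeR adjusted p = 0.580). Its groups did not overlap, but the cKO 3 and Control 2 values were close. Without 1 library the log2 fold change of Gins1 ran from -0.72 to -0.30, and it was -0.30 without Control 3 and -0.32 without cKO 2. Gins2, another subunit of the same complex, had 34.2 and 27.2 CPM in cKO libraries and 27.7 and 26.7 CPM in Control libraries, with overlap. Cdc45 had 9.27 and 8.76 CPM in cKO libraries, inside the 6.62 to 12.7 CPM of the Control libraries. Mcm10, which joins the helicase at activation, was read at 3.05 and 3.72 CPM in cKO libraries and 3.26 and 3.25 CPM in Control libraries.

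The clamp and ribonucleotide reductase genes were among the 5 with a mean above 50 CPM and had narrow intervals. Pcna stood at 102 and 91.5 CPM in cKO libraries, against 98.9 and 112 CPM in Control libraries (log2 fold change -0.13, SE 0.14, edgeR adjusted p = 0.769). Without 1 library it was between -0.22 (Control 2 left out) and -0.038 (Control 3 left out). Its 95% interval of the fold ran from 0.735 to 1.14. Rrm1 and Rrm2, the subunits of ribonucleotide reductase, had intervals from 0.799 to 1.40 and from 0.788 to 1.28. Those intervals hold no change of 2-fold in either direction. Tyms, the gene of thymidylate synthase, stood at 20.7 and 15.6 CPM in cKO libraries, against 16.3 and 11.2 CPM in Control libraries (log2 fold change 0.40, SE 0.29, edgeR adjusted p = 0.657), with overlap. The Tyms value was 0.15 without Control 3, 0.18 without cKO 2 and 0.69 without Control 2.

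The cyclin E genes were read less often. Ccne2 had 5.48 and 5.30 CPM in cKO libraries, against 3.67 and 4.42 CPM in Control libraries (log2 fold change 0.41, SE 0.38, edgeR adjusted p = 0.725). In TPM its direction was the opposite, with 3.13 and 2.94 TPM in cKO libraries and 3.57 and 3.58 TPM in Control libraries. Ccne1 had 10.004 and 8.10 CPM in cKO libraries, inside the 5.14 to 12.8 CPM of the Control libraries. The spread of Ccne1 between the Control libraries was thus larger than that between the groups.

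Among the kinases and cyclins that drive mitosis, Plk1 had the smallest p. Plk1 encodes polo-like kinase 1, which acts in spindle assembly and mitotic entry. It stood at 9.95 and 10.99 CPM in cKO 2 and cKO 3, against 20.2 and 13.6 CPM in Control 2 and Control 3. Its fold was 0.621, with a 95% interval of 0.391 to 0.984 (log2 fold change -0.69, SE 0.28, edgeR adjusted p = 0.448). Its groups did not overlap, but Control 2 stood apart from Control 3. Without Control 2 the log2 fold change of Plk1 was -0.37, and without Control 3 it was -0.95.

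The mitotic cyclins did not share a direction. Ccnb2, a cyclin B gene, stood at 11.4 and 11.3 CPM in cKO libraries, against 12.6 and 18.2 CPM in Control libraries (log2 fold change -0.44, SE 0.28, edgeR adjusted p = 0.603). Without Control 3 the log2 fold change of Ccnb2 was -0.15, and without Control 2 it was -0.68. Ccnb1 stood at 32.6 and 24.7 CPM in cKO libraries, against 26.9 and 24.8 CPM in Control libraries (0.15, SE 0.22, edgeR adjusted p = 0.845), and Ccnb1 was at -0.063 without cKO 2 and 0.33 without cKO 3. Only the Ccnb2 values did not overlap. Ccna2 had 28.6 and 24.1 CPM in cKO libraries and 25.6 and 23.1 CPM in Control libraries. Cdk1, the kinase gene they share, had 26.8 and 24.5 CPM in cKO libraries and 24.4 and 26.8 CPM in Control libraries. Its 95% interval of the fold ran from 0.727 to 1.38.

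Neither Aurora kinase gene passed. Aurkb, the kinase of the chromosomal passenger complex, stood at 14.95 and 17.08 CPM in cKO libraries, against 12.4 and 13.0 CPM in Control libraries (log2 fold change 0.33, SE 0.24, edgeR adjusted p = 0.655). Its groups did not overlap and it did not pass. Birc5, which encodes survivin of the same complex, had 20.01 and 14.36 CPM in cKO libraries and 14.6 and 16.1 CPM in Control libraries. Aurka, the spindle pole kinase, had 16.0 and 12.8 CPM in cKO libraries and 13.8 and 14.0 CPM in Control libraries. Both overlapped between the groups.

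Kinetochore genes did not share a direction. Cenpf encodes a large kinetochore protein. It stood at 25.3 and 17.3 CPM in cKO libraries, against 15.3 and 16.4 CPM in Control libraries (log2 fold change 0.42, SE 0.26, edgeR adjusted p = 0.594), where cKO 2 alone was far above the rest. Without cKO 2 the log2 fold change of Cenpf was 0.13, and without cKO 3 it was 0.67. Cdc20, which activates the anaphase-promoting complex, stood at 22.6 and 21.9 CPM in cKO libraries, against 26.8 and 26.9 CPM in Control libraries (-0.27, SE 0.19, edgeR adjusted p = 0.655). Its replicates lay close together and the groups did not overlap. Cenpe, a kinetochore motor, had 7.003 and 6.393 CPM in cKO libraries, inside the 5.75 to 11.5 CPM of the Control libraries (-0.37, SE 0.40, edgeR adjusted p = 0.772). The Cenpe value was 0.22 without Control 3 and -0.78 without Control 2.

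The checkpoint kinase genes varied within groups. Bub1 had 5.002 and 1.708 CPM in cKO libraries and 1.22 and 2.69 CPM in Control libraries (log2 fold change 0.77, SE 0.70, edgeR adjusted p = 0.719). Without cKO 2 the log2 fold change of Bub1 was -0.19, and without Control 3 it was 1.44. Its 95% interval of the fold ran from 0.552 to 5.28. Ttk had 3.95 and 3.72 CPM in cKO libraries, inside the 1.58 to 7.56 CPM of the Control libraries. Bub1b had 14.2 and 6.83 CPM in cKO libraries and 14.8 and 10.4 CPM in Control libraries. In all 3 genes libraries of 1 group lay further apart than the group means.

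Proliferation markers and spindle genes followed. Mki67, the gene of the Ki-67 antigen used to stain dividing cells, stood at 10.3 and 8.76 CPM in cKO libraries, against 10.3 and 14.5 CPM in Control libraries (log2 fold change -0.38, SE 0.30, edgeR adjusted p = 0.679). Control 3 was high, and Control 2 lay just above cKO 2, so the groups did not overlap. Its interval of the fold ran from 0.476 to 1.24, and its log2 fold change was -0.12 without Control 3 and -0.61 without Control 2. Top2a, the topoisomerase gene that untangles sister chromatids, stood at 34.0 and 31.5 CPM in cKO libraries, against 35.6 and 34.9 CPM in Control libraries. The Top2a interval of the fold ran from 0.698 to 1.24. Nusap1, a spindle microtubule protein gene, had 7.53 and 9.55 CPM in cKO libraries and 8.76 and 11.4 CPM in Control libraries (-0.24, SE 0.31, edgeR adjusted p = 0.817). In TPM the Nusap1 groups did not overlap, with 3.28 and 4.59 TPM in cKO libraries and 6.39 and 5.40 TPM in Control libraries. Its log2 fold change was -0.039 without Control 3 and -0.42 without cKO 3. Tpx2, which helps to nucleate spindle microtubules, had 20.5 and 22.5 CPM in cKO libraries, inside the 16.9 to 23.1 CPM of the Control libraries.

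Precision followed how often a gene was read. The 10 genes with a mean below 10 CPM had standard errors of 0.28 to 0.70 on the log2 scale. The 21 genes between 10 and 50 CPM had 0.17 to 0.39, and the 5 genes above 50 CPM had 0.14 to 0.17. For 20 of the 36 genes the 95% interval lay wholly inside a 2-fold change in either direction. For the other 16 a change of 2-fold was not outside the interval, so these libraries could not show whether it is there.

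Counts and TPM gave different pictures for several genes. The sign of the log2 ratio of mean TPM was opposite to that of the fold change from counts for 6 of the 36 genes, or 4 replication and 2 mitosis genes, against 9.38% of the 16441 tested genes with values above 0 in every library. Cenpf had 3.12 and 4.85 TPM in cKO 2 and cKO 3, against 4.05 and 4.74 TPM in Control 2 and Control 3, so cKO 2 was its lowest library in TPM and its highest in CPM. CPM divided by TPM follows the apparent transcript length used for the TPM. For Cenpf it was 8.11 and 3.57 in the cKO libraries, against 3.79 and 3.46 in the Control libraries, and the highest was 2.35 times the lowest. That ratio of highest to lowest exceeded 1.5 for 6 of the 36 genes (Cenpf, Bub1b, Ccne2, Nusap1, Gins2 and Mcm10), against 10.8% of all genes, and its median was 1.16 in both sets.

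**Figure D3:**
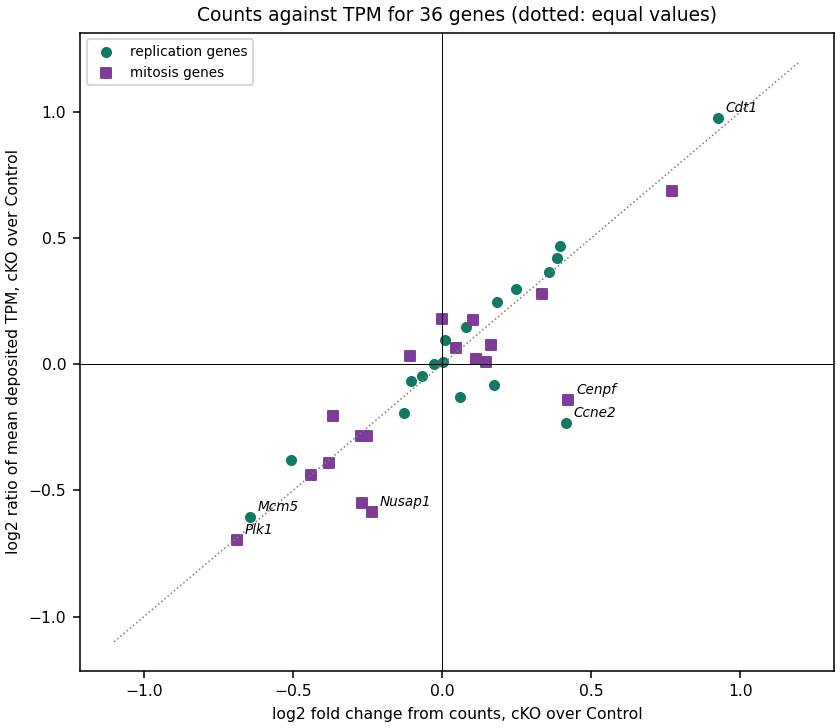
Log2 fold change from counts (horizontal) against the log2 ratio of mean deposited TPM (vertical), cKO over Control, 1 point per gene (circles: replication, squares: mitosis). Most points follow the dotted line of equal values, while Cenpf and Ccne2 are positive in counts and negative in TPM.

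The other genes of the cell cycle were read from 10 lists with 240 genes, of which 236 were tested. Of these 107 had a positive and 129 a negative log2 fold change, with a median of -0.031 (0.0090 with upper-quartile scaling), and 25 (10.6%) had an unadjusted p below 0.05, against 10.9% of all tested genes. A single gene passed the threshold: Hjurp, the chaperone gene of the centromeric histone CENP-A, fell to 16.1 and 13.5 CPM in cKO libraries, against 51.9 and 59.8 CPM in Control libraries (log2 fold change -1.92, SE 0.20, edgeR adjusted p = 0.0414). With the other scalings and filters, DESeq2, both limma settings and robust shrinkage, 1 of the list genes passed each time. The Hjurp call was lost with the replicate number as a block (edgeR adjusted p = 0.0542). It was also lost without each library in turn, where the log2 fold change of Hjurp stayed between -2.04 and -1.80. The next smallest adjusted p of the 236 genes was 0.325.

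In the S phase lists, origin and licensing genes had 7 positive and 12 negative values (median -0.22). The origin recognition genes Orc3 and Orc5 stood at -0.53 (SE 0.17) and -0.68 (SE 0.23), and the MCM-related gene Mcm8 at -1.37 (SE 0.54). Without 1 library the log2 fold change of Mcm8 ran from -2.09 to -0.88. Fork and polymerase genes had 13 positive and 17 negative values (median -0.12), with the polymerase subunit genes Pold3 at -0.62 (SE 0.19) and Pola2 at -0.87 (SE 0.31) and the single-strand binding gene Rpa1 at 0.42 (SE 0.16). Nucleotide supply and checkpoint genes had 7 positive and 10 negative values (median -0.13). Brca2, a DNA repair gene, stood at -0.98 (SE 0.36) and the fork protection gene Timeless at -0.69 (SE 0.33). The log2 ratio of mean TPM was smaller in size for Brca2, at -0.21, and for Pold3, at -0.32, whose groups overlapped in TPM. None of these passed (edgeR adjusted p from 0.363). Their medians thus lay below that of the 18 replication genes, and the difference was not tested.

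Regulators of the cycle came next. Of 24 genes of E2F, DREAM and FOXM1, 15 were positive and 9 negative (median 0.056), with the pocket protein gene Rbl2 at -0.66 (SE 0.29), the DREAM subunit gene Lin9 at 0.82 (SE 0.42) and the NF-Y subunit gene Nfya at -0.82 (SE 0.46). The list of G1 cyclins and kinases also holds Cdc25a, Mnat1, Myc and Mycn, and 10 of its 12 genes were positive (median 0.15). Of these, Cdk4 (0.00082) and Mycn (0.0094) were near 0. The kinase gene Cdk6 stood at 0.79 (SE 0.24) and the cyclin gene Ccnd3 at 0.36 (SE 0.15). Ccnh, a subunit gene of the CDK-activating kinase, stood at -0.24 (SE 0.16). Of 15 tested inhibitors and genes of cell cycle exit 8 were positive and 7 negative (median 0.030). The CDK inhibitor genes Cdkn2b and Cdkn1c stood at 1.59 (SE 0.57) and 0.35 (SE 0.14), and the p53 target gene Ccng1 at 0.77 (SE 0.23). Cdkn2b was read at 3.00 and 3.28 CPM in cKO libraries, against 0.92 and 1.17 CPM in Control libraries. None of these passed (edgeR adjusted p from 0.363).

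In the M phase lists, spindle, motor and cytokinesis genes had 9 positive and 18 negative values (median -0.23), with the kinesin genes Kif22 and Kif2c at -0.77 (SE 0.20) and -1.09 (SE 0.36) and the cytokinesis gene Anln at -1.43 (SE 0.41). Kinetochore and checkpoint genes had 18 positive and 19 negative values (median -0.019). Beside Hjurp, the checkpoint gene Mad1l1 stood at -0.49 (SE 0.23) and the kinetochore gene Zwint at -0.20 (SE 0.096). Condensin and cohesin genes had 7 positive and 15 negative values (median -0.033). The condensin gene Ncapd2 stood at -0.38 (SE 0.15), the separase gene Espl1 at 1.50 (SE 0.63) and the cohesin loader gene Nipbl at 0.42 (SE 0.19). Without 1 library the log2 fold change of Espl1 ran from 0.80 to 2.91. Genes of M phase kinases and the anaphase-promoting complex had 13 positive and 20 negative values (median -0.067). Its subunit genes Anapc7, Cdc23 and Anapc1 stood at -0.45 (SE 0.16), -0.36 (SE 0.13) and 0.43 (SE 0.17).

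**Figure D4:**
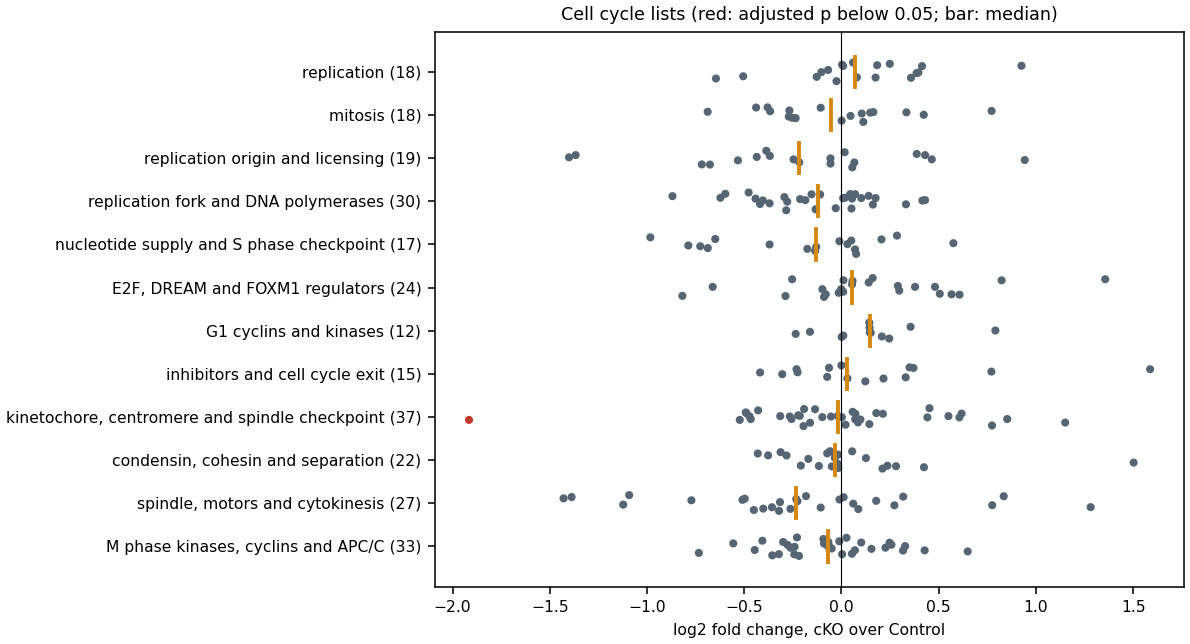
Log2 fold change, cKO over Control, of each tested gene (points) of the replication, mitosis and 10 other cell cycle lists, with the list median as an orange bar and the number of tested genes in brackets. The 1 red point is Hjurp at -1.92, the only one past the threshold.

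Markers of dividing cells, of cortical and striatal neurons and of other cells of the tissue were read in the same libraries, and their part in the values above was not tested. The 5 cortical neuron markers summed to 654 and 735 TPM in cKO libraries and 554 and 632 TPM in Control libraries, so the labelled tissue was present in all 4. The 8 radial glia markers summed to 2407 and 2272 TPM in cKO libraries, against 2609 and 2595 TPM in Control libraries. Most of that sum was Fabp7, with 2070 and 1909 TPM in cKO libraries against 2265 and 2229 TPM in Control libraries. The markers were split in sign. Of the 8, 3 were positive (Nes at 0.40, Vim at 0.21 and Hes1 at 0.29). The other 5 were negative (Hes5 at -0.42, Sox2 at -0.24, Pax6 at -0.21, Slc1a3 at -0.18 and Fabp7 at -0.11). The 5 intermediate progenitor markers, of which Neurog1 had 0 counts in every library, summed to 39.5 and 53.3 TPM in cKO libraries, against 34.3 and 38.8 TPM in Control libraries. Of the 4 tested, Eomes (log2 fold change 0.65, SE 0.30), Neurog2 (0.75, SE 0.27) and Insm1 (0.60, SE 0.18) were higher in both cKO libraries than in both Control libraries, and Btg2 (-0.30, SE 0.33) overlapped. Ganglionic eminence and subventricular markers summed to 118 and 99.7 TPM in cKO libraries, against 125 and 130 TPM in Control libraries. Oligodendrocyte precursor markers summed to 90.6 and 118 TPM in cKO libraries, against 120 and 132 TPM in Control libraries. Most of that sum was Olig1 (-0.30, SE 0.14), the only one of these markers whose groups did not overlap in CPM. Olig2 (-0.27) and Sox10 (-0.32) were negative, while Pdgfra (0.25) and Cspg4 (0.32) were positive. Astrocyte markers summed to 57.2 and 69.1 TPM in cKO libraries, against 94.8 and 85.2 TPM in Control libraries. The sums of striatal markers were 86.5 and 85.3 TPM in cKO libraries, against 197 and 149 TPM in Control libraries. Meningeal markers summed to 113 and 113 TPM in cKO libraries, against 66.3 and 89.7 TPM in Control libraries. Endothelial markers summed to 136 and 144 TPM in cKO libraries and 148 and 139 TPM in Control libraries. Most of that sum was Cldn5 (-0.11, SE 0.13), which in CPM was lower in both cKO libraries than in both Control libraries. The other 4 were higher in CPM in both cKO libraries than in both Control libraries. These were Flt1 (0.69, SE 0.20), Pecam1 (0.35, SE 0.25), Kdr (0.28, SE 0.19) and Cdh5 (0.74, SE 0.46). Such a separation in CPM, here and among the progenitor markers, was seen for 44.1% of all tested genes. Microglial markers summed to 53.2 and 51.6 TPM in cKO libraries and 54.8 and 64.5 TPM in Control libraries. Red cell markers summed to 16395 and 7297 TPM in cKO libraries and 11527 and 12305 TPM in Control libraries. None of these markers passed the threshold (edgeR adjusted p from 0.147).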

How the data were processed

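RNA of newborn cortex was measured by RNA-seq in 2 cKO and 2 Control libraries. The deposited tables hold 1 estimated count and 1 TPM value per gene and library, made by the authors. The submitters' processing notes name DRAGEN and the build GRCm39, and no further step is stated there. Estimated counts were rounded to whole numbers (12.0% to 13.5% of values were not whole) and tested with edgeR 4.0.16 (R 4.3.3; TMM scaling, filterByExpr, quasi-likelihood test, Benjamini-Hochberg adjustment over 17017 genes, threshold 0.05). Total counts ran from 19421470 to 22511175 per library. Standard errors and 95% intervals come from that fit.

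Alternatives were 2 other scalings, 2 other filters, DESeq2 1.42.0, limma 3.58.1 (voom, and log2(TPM + 1) for genes with a mean TPM of at least 1), robust shrinkage, a replicate block and leaving out each library. The groups follow the labels. The 36 genes, the other lists and the tests were chosen with earlier results of these data known. Genes of the other lists were named by the 3 smallest unadjusted p per list (1 gene that this rule names is not reported here), and the 10 replication and 10 mitosis genes with the smallest p are given with their test and the rest by their levels. Promoters are RefSeq windows of GRCm38.p6. Gene coordinates of the tables are not mixed with them.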

Additional observations from a re-analysis of the deposited data

How the results depend on the processing

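None of the 36 genes passed the threshold under any of the alternatives run, with smallest adjusted p-values (edgeR, DESeq2 or limma) between 0.135 with DESeq2 and 0.919 without Control 3. The count of all genes that were higher in cKO libraries was 1 in the edgeR test and 21 with no filter, 2 at a mean CPM of at least 1, 80 with DESeq2, 3 with limma-voom and 58 with limma on log2(TPM + 1). The count of lower genes was 7 in the edgeR test and 37 with no filter, 105 with DESeq2 and 18 with limma on log2(TPM + 1). Leaving out each library in turn gave 0 to 0 higher and 0 to 2 lower genes. The difference between the replication and mitosis medians, 0.12, was 0.026 with log2(TPM + 1) and 0.032 to 0.24 without 1 library, and the replication median was then 0.039 to 0.22. The number of positive mitosis genes, 9, was 3 to 11 without 1 library. The median of the other lists, -0.031, was 0.0090 with upper-quartile scaling and -0.082 to -0.026 without 1 library, and their count past the threshold, 1, was then 0 to 0. Over these settings log2 fold changes were followed for the 10 replication and 10 mitosis genes with the smallest p and named list genes. The rest of the 36 were not followed gene by gene. Among those followed, the sign turned for Ccne2 (-0.18) and Cenpf (-0.13) with log2(TPM + 1). Without 1 library it turned for Bub1 (-0.19 to 1.44), Ccnb1 (-0.063 to 0.33) and Cenpe (-0.78 to 0.22). The cause of these shifts was not tested.

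The replicate numbers 2 and 3 are shared by the groups, but the labels tie them to no litter or day. They were therefore not used as pairs. Deviations of same-numbered libraries from their group means had a correlation of 0.0136 over 17017 genes. With 2 libraries per group this value cannot show whether the numbers mark a batch. With the replicate block the counts over all genes were 1 higher and 6 lower, 0 of the list genes passed, and the replication and mitosis medians were 0.11 and 0.020, with a difference of 0.092. Below a mean of 10 CPM the standard errors limit what can be seen.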
